A study of Mus musculus with 12 samples.

Results

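The cells described here are 3 mouse lines, M1, M2 and M3, which the labels give as hepatocellular carcinoma lymph node metastasis lines. The libraries were chosen by label alone. They are the 6 titled as metastasis lines, 1 with PLX4720 and 1 with DMSO from each line. The series holds 12 libraries from 6 lines. The other 6 libraries come from the liver tumour lines T1, T2 and T3, called primary lines below. They show where the response of the metastasis lines differs, and they share the fit, so that they also add to the estimate of the spread behind each p-value. All 12 libraries carry the same genotype label, BRAFV600E with p53 knockout, and all lines were grown in serum-containing medium and kept for 48 hours in 2 µM PLX4720 or in DMSO, the solvent. The mouse models express the BRAF mutation in hepatocytes, with Trp53 or Cdkn2a deleted, so tumour cells, whether treated or not, carry it. Each library is 1 culture of 1 line, and the replicates are therefore lines, not animals or repeated cultures. M2, M3 and T3 share a number in the names of the deposited tables and M1 has another, while the labels do not say which lines came from 1 animal.

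PLX4720 is a kinase inhibitor selective for mutant BRAF. BRAF phosphorylates MEK, MEK phosphorylates ERK, and active ERK turns on genes that include its own brakes (the dual specificity phosphatases, Sprouty and Spred proteins) and the ETS factors Etv4 and Etv5, so these transcripts are widely read as a gauge of ERK signalling. Mesenchymal-like carcinoma cells have lost epithelial adhesion and carry matrix and contractile genes that transforming growth factor beta (TGF-beta), YAP with TEAD factors and SRF with its cofactors can drive. The series title places TGF-beta 2 production and metastasis under BRAF inhibition at the centre of the study, and the comparison below asks which transcripts differed in the metastasis lines after 48 hours with the drug.

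Values are the deposited fragment counts divided by the total of their library after TMM scaling (CPM). They do not correct for transcript length, so levels are compared between libraries and never between genes. The values of 3 libraries are always given in the order M1, M2, M3. Each change is the fitted log2 ratio of PLX4720 to DMSO in the 3 lines, from edgeR's quasi-likelihood test with the line as a block. Adjustment was by Benjamini-Hochberg over 16555 genes. The value after ± is a standard error (SE): the size of the estimate divided by the square root of that test's F value. The SE draws on the fit of all 12 libraries and is not the spread over M1, M2 and M3 alone. A gene rose or fell where the adjusted p was under 0.05. The gene lists below were chosen with earlier results of these data known. The share of a list that passed therefore describes it and does not test it. In bulk libraries fewer cells of a type and less RNA per cell cannot be told apart. Nothing in the labels says that the cultures were repeated, so p-values rest on the spread between lines, estimated over all 6 lines.

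Marker levels set the metastasis lines apart from the primary lines, and from hepatocytes. The summed level of 15 hepatocyte markers ran from 15.7 to 107 CPM in the metastasis libraries against 890 to 1990 CPM in the primary libraries. Of the 15, 11 stayed under 1 CPM in every metastasis library, and Alb, Ttr and Serpina1a, which encode secreted liver proteins, had no fragment in any of them. Epithelial markers summed to 1.58 to 20.8 CPM against 5900 to 9120 CPM. Mesenchymal markers summed to 5450 to 8820 CPM against 1900 to 4760 CPM. Vim made most of this sum and overlapped between sites, at 4020 to 5740 CPM against 1640 to 4350 CPM. Cdh2 overlapped too, at 82.3 to 229 CPM against 139 to 273 CPM, and Spock1 was at 0 in the metastasis libraries. Every other mesenchymal marker listed was higher in each metastasis library than in any primary library. Leukocyte markers (16 genes, 13 under 1 CPM in every metastasis library and 5 at 0) summed to 9.37 to 34.5 CPM with DMSO and 3.37 to 11.2 CPM with PLX4720, endothelial markers to 0.465 to 2.41 CPM and mesothelial markers to 0.97 to 17.2 CPM. Lymph node stroma and stellate cell markers summed to 229 to 396 CPM with DMSO and 429 to 719 CPM with PLX4720. Pdgfrb, Ltbr and Pdpn made this level. Of the 13 markers on this list 9 stayed under 1 CPM in every metastasis library, with Ccl19, Ccl21a, Lrat, Des and Tcf21 at 0. Pdgfrb measured 72.5 to 595 CPM against at most 0.241 CPM in the primary libraries, and Pdpn 23.6 to 95.7 CPM against at most 6.27 CPM. Ltbr was lower than in the primary libraries, at 85.3 to 103 CPM against 118 to 207 CPM. Most of the hepatocyte sum in the metastasis libraries came from Ass1, at 4.62 to 51.9 CPM, and Cebpa, at 3.28 to 53.2 CPM. Their ranges overlapped those of the primary libraries, at 0.0526 to 37.8 CPM and 1.73 to 14.2 CPM. The lines thus bore the mesenchymal part of their description, while most hepatocyte markers listed, Ass1 and Cebpa apart, were low or absent.

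**Figure D1:**
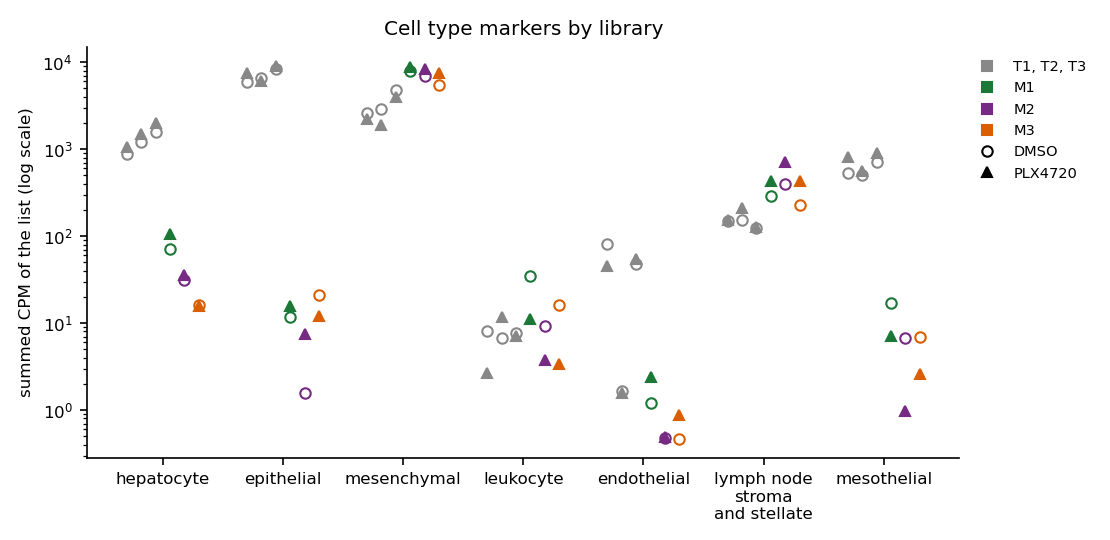
Summed level of each cell type marker list (CPM, log scale) in every library, with primary lines T1, T2 and T3 in grey, metastasis lines in colour, open circles for DMSO and filled triangles for PLX4720. The metastasis libraries lie at 15.7 to 107 CPM for hepatocyte markers and at 5450 to 8820 CPM for mesenchymal markers.

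Of all genes tested 20.4% passed, and against that share 4 of 15 mesenchymal markers tested rose and none fell, 2 of 10 epithelial markers rose and 2 fell, and 2 of 13 hepatocyte markers rose and 1 fell. Of the other cell types 2 of 4 leukocyte markers fell, 1 of 4 stroma and stellate markers rose and 1 fell, 1 of 7 endothelial markers rose and 1 of 5 mesothelial markers fell. Among mesenchymal markers Vim, Zeb1, Twist1 and Prrx1 did not pass. Snai1, a repressor of epithelial genes, measured 9.19, 9.52 and 6.82 CPM with DMSO and 28.2, 22.5 and 11.7 CPM with PLX4720 (log2 change 1.22 ± 0.19, edgeR adjusted p = 0.00301). Its relative Snai2 went from 8.44, 15.8 and 6.65 to 30, 45.2 and 17.5 CPM (log2 change 1.58 ± 0.21, edgeR adjusted p = 0.00126). For both genes every library with PLX4720 lay above its own DMSO library. Fbn1, which encodes the microfibril protein fibrillin, rose from 80.4, 137 and 74.8 to 196, 550 and 124 CPM (log2 change 1.34 ± 0.28, edgeR adjusted p = 0.0112; adjusted p = 0.0808 without M2). Of the hepatocyte list, the liver factor Cebpa rose from 18.9, 9.13 and 3.28 to 53.2, 25.4 and 5.15 CPM (log2 change 1.24 ± 0.21, edgeR adjusted p = 0.00393), while Afp, the fetal serum protein alpha-fetoprotein, fell from 0.328, 0.179 and 2.93 to 0.164, 0.091 and 0.989 CPM (log2 change -1.37 ± 0.30, edgeR adjusted p = 0.0138; 0.229 without M3). Of the epithelial list, the keratin Krt7 rose from 7 fragments in the 3 DMSO libraries to 262 in the 3 PLX4720 libraries, at 1.23, 2.52 and 3.9 CPM (log2 change 5.10 ± 0.52, edgeR adjusted p = 0.000343; the log2 change was 6.61 without M1 and 4.08 without M3). The tight junction protein Ocln, occludin, fell from 2.03, 0 and 1.86 to 0.657, 0 and 0.262 CPM (log2 change -2.11 ± 0.35, edgeR adjusted p = 0.00504; log2 change -2.79 without M1). Grhl2, a factor that maintains epithelial genes, fell from 0.298, 0.476 and 0.436 to 0.11, 0.091 and 0.0582 CPM (log2 change -2.16 ± 0.45, edgeR adjusted p = 0.0106; 0.0622 without M2 and 0.0522 without M3). Both stayed at or under 2.03 CPM in every metastasis library. Pdpn, the membrane glycoprotein podoplanin of lymph node stroma and of invasive tumour cells, fell from 95.7, 67.3 and 71.3 to 56.4, 28.8 and 23.6 CPM (log2 change -1.19 ± 0.18, edgeR adjusted p = 0.00224).

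Trp53 gave 4.86, 3.27 and 3.83 CPM with DMSO and 4.19, 3.58 and 2.79 CPM with PLX4720 (log2 change -0.18 ± 0.18, edgeR adjusted p = 0.535); fragments were counted over the whole gene, so these levels do not check which exons were deleted. Cdkn2a was near 0 in M1 and M2 in both treatments and stood at 229 CPM with DMSO and 254 CPM with PLX4720 in M3, so that a level in M3 alone sets its values (log2 change 0.38 ± 0.27, edgeR adjusted p = 0.369; log2 change 2.05 and adjusted p = 0.0447 without M3). Total fragments per library ranged from 31992512 to 37326602 in the metastasis lines and the mitochondrial share from 0.189% to 0.597%. The mitochondrial share was higher with PLX4720 than with DMSO in each of the 3 lines, and its part in the results was not tested.

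Of 16555 genes tested, 3378 (20.4%) passed the threshold in the metastasis lines: 1994 (12.0%) rose and 1384 (8.36%) fell, with a median log2 change over all genes of 0.017. By at least 2-fold, 984 rose and 445 fell, and 565 of the first and 205 of the second exceeded 2-fold in every line. The direction was the same in all 3 lines for 3305 of the 3378, and for 50.2% of all genes tested. A gene passes more easily where its lines move alike, so the first count is no separate evidence of agreement. Of 10966 well measured genes 9.2% changed over 2-fold in M1, 8.21% in M2 and 8.73% in M3. Without M2 the count fell to 1891, and no gene called in both fits changed direction.

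**Figure D2:**
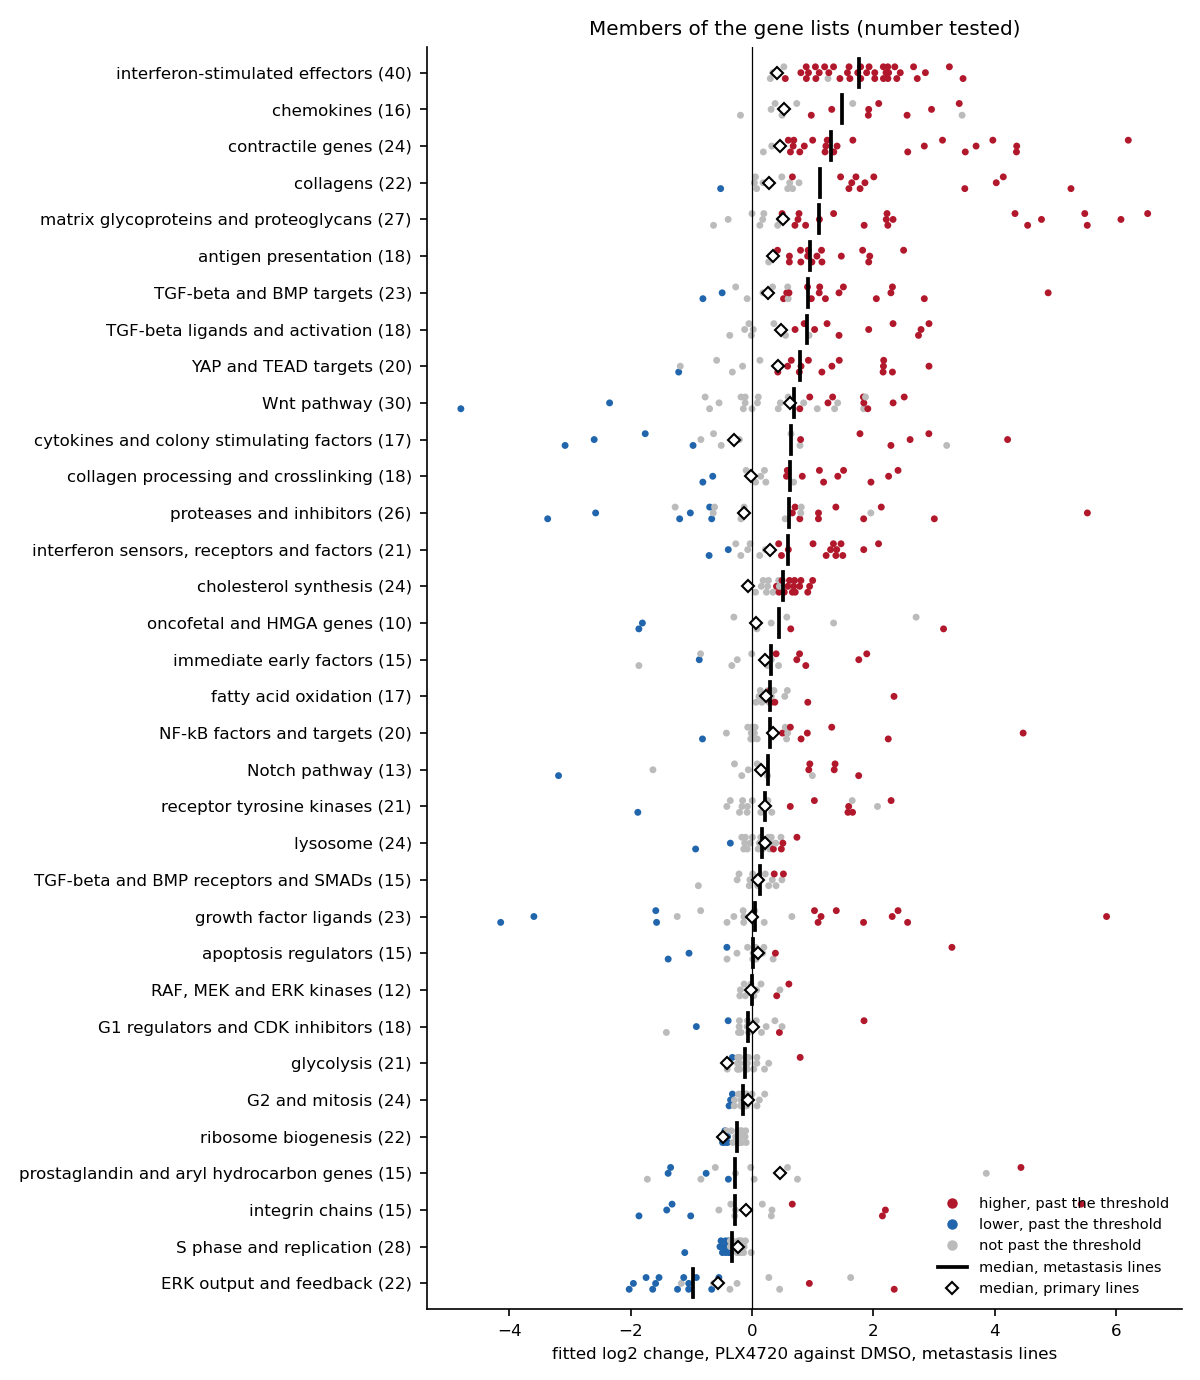
Fitted log2 change of each tested member of the gene lists in the metastasis lines, with the cell type marker lists left out, members that passed the threshold in red (higher) or blue (lower), the list median as a black bar and the median of the same members in the primary lines as a diamond. Among the lists drawn medians run from -0.98 for ERK output genes to 1.76 for interferon-stimulated effectors.

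Most transcripts that report ERK activity fell, with the smallest median fall in M1. Of 22 ERK output and feedback genes 13 fell and 2 rose, with a median log2 change of -0.98 in the metastasis lines and -0.56 in the primary lines. Dusp6, the cytoplasmic phosphatase that dephosphorylates ERK, measured 167, 194 and 185 CPM with DMSO and 70.9, 39.7 and 36.7 CPM with PLX4720. The 2 sets did not overlap, and the fall was 3.88-fold (log2 change -1.95 ± 0.21, edgeR adjusted p = 0.000467). Etv4, an ETS factor whose transcript follows ERK, went from 144, 129 and 110 to 55.1, 24.9 and 22.2 CPM, 4.06-fold lower (log2 change -2.02 ± 0.23, edgeR adjusted p = 0.000539). Spred3, which blocks RAF activation by RAS, went from 20.6, 15.1 and 15.1 to 7.31, 6.31 and 4.19 CPM (log2 change -1.53 ± 0.15, edgeR adjusted p = 0.000285). Ccnd1, which encodes cyclin D1 and links ERK to entry into the cell cycle, fell from 1100, 933 and 974 to 654, 382 and 594 CPM (log2 change -0.92 ± 0.14, edgeR adjusted p = 0.00255). In each of these genes all 3 DMSO libraries lay above all 3 PLX4720 libraries. Over all genes tested, 12.2% had DMSO and PLX4720 ranges that did not overlap. The genes named here and below were mostly picked for a small p or a large change, which favours ranges that lie apart.

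The line medians of the 22 ERK output genes were -0.49 in M1, -1.13 in M2 and -1.19 in M3. Of the 13 that fell, 8 had their smallest decrease in M1, 3 in M2 and 2 in M3. Ier3, an early ERK target, changed by -0.01 in log2 CPM in M1, -1.35 in M2 and -1.75 in M3, and Spry4, which did not pass over the 3 lines, by 0.16, -1.70 and -1.86. Spry1, another brake of receptor signalling, went against the list, at 3.55, 13.6 and 13.7 CPM with DMSO and 7.01, 27.4 and 24.6 CPM with PLX4720, 1.92-fold higher (log2 change 0.94 ± 0.10, edgeR adjusted p = 0.000492). The primary lines gave 0.16 for Spry1, and the difference between sites passed (site difference 0.79 ± 0.14, edgeR adjusted p = 0.0248).

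**Figure D3:**
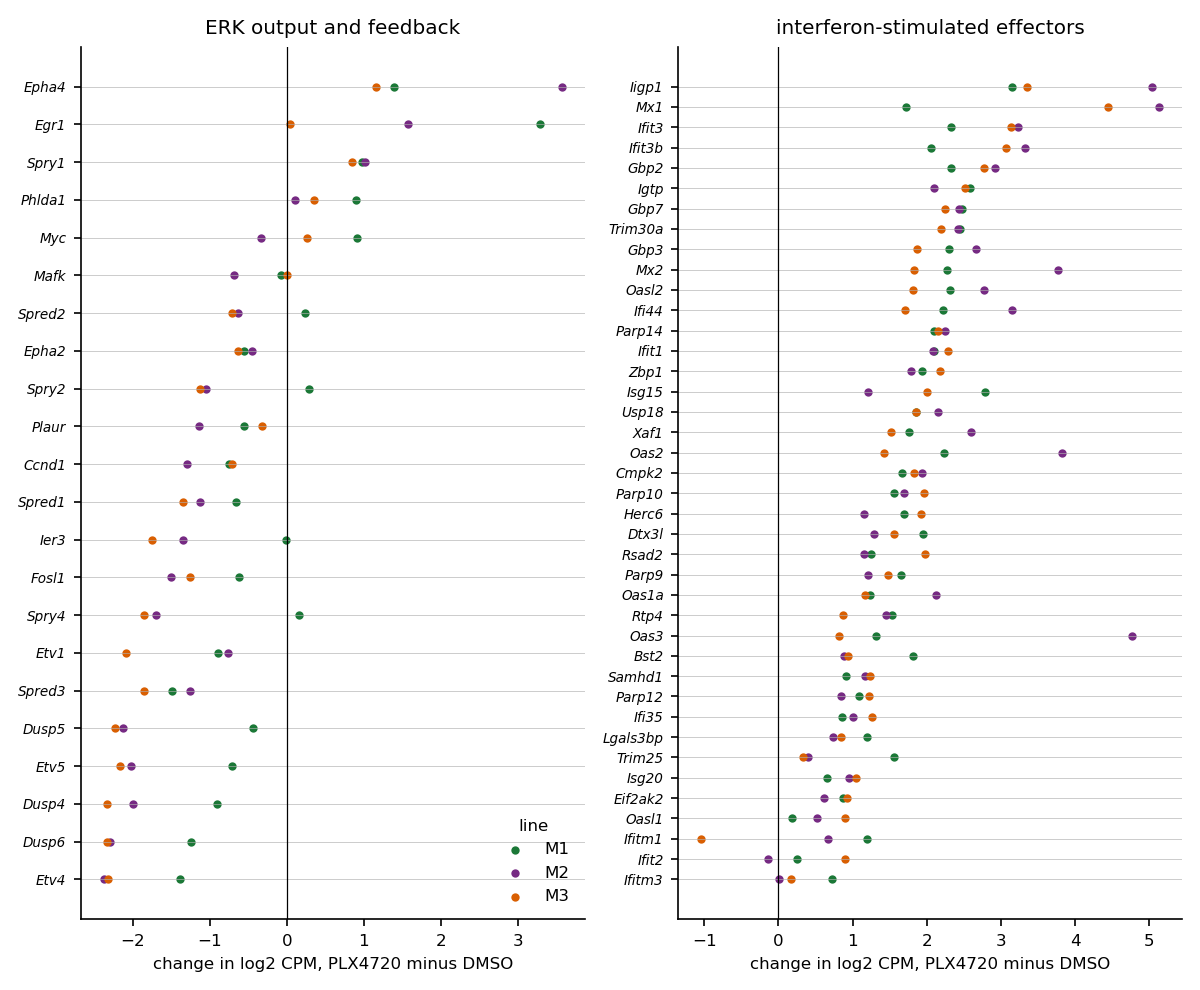
Change in log2 CPM, PLX4720 minus DMSO, in each line for the tested ERK output and feedback genes and for the interferon-stimulated effectors. Of the 13 ERK output genes that fell, 8 have their smallest decrease in M1 (green), while the interferon-stimulated effectors lie to the right of 0 in nearly every line.

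Of 12 RAF, MEK and ERK genes, the kinases of the pathway, 2 rose and none fell, or 16.7% against 20.4% of all genes. Their median was 0.006, and neither of the 2 passed without M2 or without M3. Braf itself measured 22.4, 22.6 and 19.5 CPM with DMSO and 32.2, 37.3 and 29 CPM with PLX4720 (log2 change 0.61 ± 0.14, edgeR adjusted p = 0.0148; adjusted p = 0.1 without M2 and 0.0518 without M3). Among 15 immediate early factors, which serum and ERK induce within minutes, 6 rose and 1 fell, and 3 rose when M2 was left out. Klf6 rose from 205, 90.8 and 208 to 299, 160 and 375 CPM (log2 change 0.74 ± 0.11, edgeR adjusted p = 0.00187). Junb rose from 46.1, 65.6 and 64 to 108, 89 and 103 CPM (log2 change 0.78 ± 0.15, edgeR adjusted p = 0.00786). The AP-1 member Fosl2 rose from 108, 143 and 81.7 to 279, 170 and 167 CPM (log2 change 0.89 ± 0.19, edgeR adjusted p = 0.0123; adjusted p = 0.057 without M3).

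Of 23 growth factor ligands 9 rose and 4 fell, and ligands of the EGF receptor family were found in both directions. Areg, which encodes amphiregulin, measured 21.9, 21.7 and 20 CPM with DMSO and 3.01, 0.546 and 0.582 CPM with PLX4720, 17.6-fold lower (log2 change -4.14 ± 0.43, edgeR adjusted p = 0.00039; log2 change -5.20 without M1). Btc, which encodes betacellulin, fell from 126, 80.7 and 36.5 to 13.3, 3.97 and 3.87 CPM, 12.1-fold (log2 change -3.59 ± 0.23, edgeR adjusted p = 4.35e-05). The DMSO and PLX4720 libraries of both ligands were far apart, with M1 keeping the highest level under the drug. Nrg1, the ligand of ERBB3 and ERBB4, instead rose from 2.06, 13.8 and 7.58 to 8.63, 41.3 and 29 CPM (log2 change 1.84 ± 0.15, edgeR adjusted p = 0.000128). Igf1, insulin-like growth factor 1, had 7 fragments in the 3 DMSO libraries and 437 in the 3 PLX4720 libraries, at 10.5, 1.18 and 0.465 CPM (log2 change 5.84 ± 0.41, edgeR adjusted p = 6.58e-05; 7.89 without M1, the line that held most of the fragments).

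Among 21 receptor tyrosine kinases 6 rose and 1 fell, with a median of 0.209. Egfr, the receptor for amphiregulin and betacellulin, went from 12.5, 1.7 and 1.28 to 37.4, 6.64 and 2.73 CPM, 2.99-fold higher although its level differed widely between lines (log2 change 1.58 ± 0.16, edgeR adjusted p = 0.000299). Pdgfrb, the PDGF receptor of fibroblasts and pericytes, rose from 100, 225 and 72.5 to 275, 595 and 314 CPM (log2 change 1.66 ± 0.18, edgeR adjusted p = 0.000497). The collagen receptor Ddr1 rose from 31.7, 15.1 and 20.8 to 60.2, 39.1 and 35.9 CPM (log2 change 1.03 ± 0.11, edgeR adjusted p = 0.00048). Fgfr2, a fibroblast growth factor receptor, rose from 9.61, 21.7 and 0.639 to 25, 45.8 and 5 CPM (log2 change 1.59 ± 0.28, edgeR adjusted p = 0.00518). Pdgfrb is also a member of the lymph node stroma and stellate list given above, of whose 13 members 9 stayed under 1 CPM in every metastasis library.

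**Figure D4:**
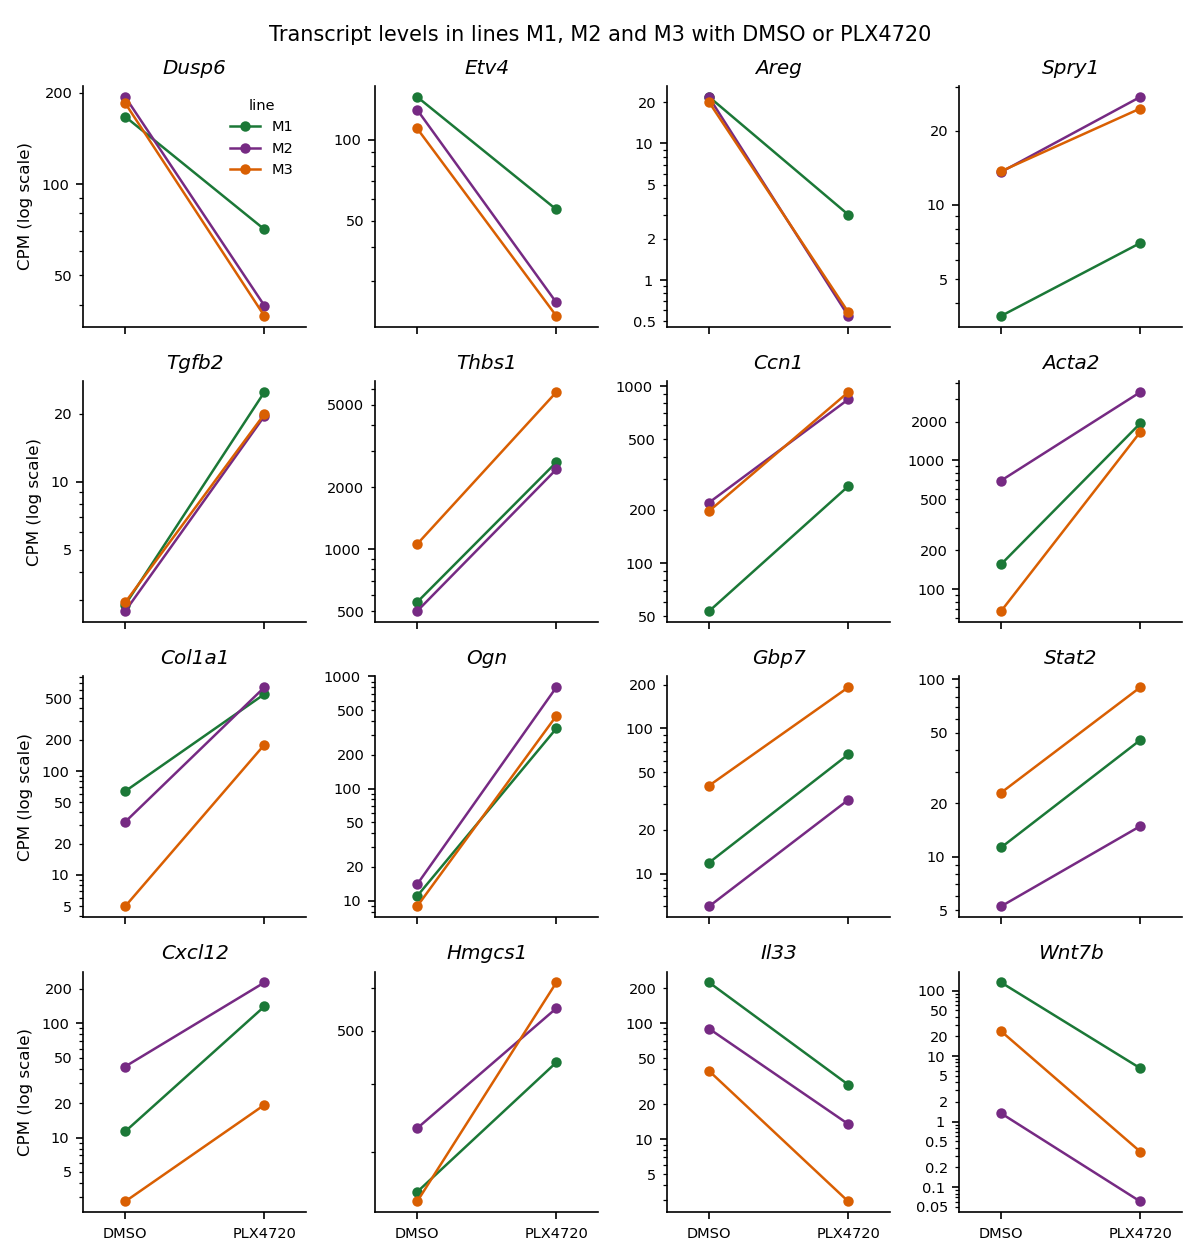
CPM (log scale, each panel with its own range) of 16 genes with DMSO and with PLX4720, joined within line M1, M2 or M3. Dusp6, Etv4, Areg, Il33 and Wnt7b are lower and the other 11 genes higher with PLX4720 in all 3 lines; Spry1 is the ERK feedback gene that rises.

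Of 18 TGF-beta ligands and proteins that release them from their latent form 10 rose and none fell, with a median log2 change of 0.90 in the metastasis lines and 0.48 in the primary lines. Tgfb2 was low and nearly equal in the 3 DMSO libraries, at 2.86, 2.68 and 2.93 CPM, and stood at 24.9, 19.5 and 19.9 CPM with PLX4720. That is 7.54-fold higher (log2 change 2.92 ± 0.19, edgeR adjusted p = 4.61e-05), against a log2 change of 2.66 in the primary lines, and the sites did not differ past the threshold (site difference 0.25 ± 0.26, edgeR adjusted p = 0.768). Tgfb3 rose from 57.3, 40.8 and 38 to 115, 82 and 123 CPM, 2.36-fold (log2 change 1.24 ± 0.18, edgeR adjusted p = 0.00185). Tgfb1 measured 13.3, 12 and 3.72 CPM with DMSO and 19.2, 6.19 and 2.09 CPM with PLX4720 (log2 change -0.37 ± 0.30, edgeR adjusted p = 0.433); M1 lay higher with the drug and M2 and M3 lower, and without M1 the log2 change was -0.90 (adjusted p = 0.0309).

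Several activators of latent TGF-beta rose. Thbs1, which encodes thrombospondin 1, an activator and adhesive matrix protein, measured 555, 502 and 1060 CPM with DMSO and 2640, 2440 and 5770 CPM with PLX4720. It was 5-fold higher (log2 change 2.32 ± 0.13, edgeR adjusted p = 2.45e-05), and the primary lines gave a smaller log2 change of 1.05 (site difference 1.27 ± 0.18, edgeR adjusted p = 0.0111). Itgb5, the beta chain of an integrin that binds latent TGF-beta, rose from 173, 274 and 178 to 370, 509 and 381 CPM (log2 change 1.03 ± 0.097, edgeR adjusted p = 0.000238). The membrane protease Mmp14 rose 1.63-fold (log2 change 0.71 ± 0.084, edgeR adjusted p = 0.000666). Of 15 receptors and SMADs 2 rose and none fell, or 13.3% against 20.4% of all genes, and the median was 0.133. Smad3, which carries the TGF-beta signal to the nucleus, went from 102, 118 and 54.7 to 134, 153 and 68.2 CPM (log2 change 0.37 ± 0.073, edgeR adjusted p = 0.00863; adjusted p = 0.056 without M2). The BMP receptor Bmpr2 rose from 30.9, 33.9 and 38.7 to 48.6, 50.2 and 48.7 CPM (log2 change 0.52 ± 0.10, edgeR adjusted p = 0.00951; 0.0577 without M2).

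Of 23 known transcriptional targets of TGF-beta and BMP 15 rose and 2 fell, with a median of 0.91 against 0.26 in the primary lines. Smad6, an inhibitor that BMP signalling induces, rose from 10.3, 8.3 and 4.24 to 37.9, 38.6 and 30.1 CPM, 4.88-fold (log2 change 2.29 ± 0.17, edgeR adjusted p = 9.48e-05). Pmepa1, a feedback inhibitor of TGF-beta receptors, rose from 38.4, 17 and 32.9 to 90.9, 32 and 74.7 CPM (log2 change 1.11 ± 0.10, edgeR adjusted p = 0.000201). The Id factors Id2 and Id3 rose from 62.7, 40.5 and 27.4 to 131, 78.5 and 67.8 CPM (log2 change 1.11 ± 0.10, edgeR adjusted p = 0.000238) and from 168, 158 and 84.7 to 351, 283 and 151 CPM (log2 change 0.91 ± 0.091, edgeR adjusted p = 0.000316). Of the 23 targets 5 had a site difference past the threshold, against 2.94% of all genes, and all 5 were more positive in the metastasis lines. A BMP ligand moved the other way: Bmp2 measured 25.7, 78.3 and 91 CPM with DMSO and 6.74, 6.1 and 3.93 CPM with PLX4720, 10.4-fold lower (log2 change -3.38 ± 0.45, edgeR adjusted p = 0.00124; log2 change -4.09 without M1).

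Of 20 YAP and TEAD target genes 14 rose and 1 fell, with medians of 0.87, 0.63 and 0.76 in M1, M2 and M3. Ccn1, a matricellular protein and classical YAP target, measured 53.6, 220 and 197 CPM with DMSO and 272, 841 and 924 CPM with PLX4720, 4.5-fold higher (log2 change 2.17 ± 0.12, edgeR adjusted p = 2.18e-05). M1 began lower than M2 and M3 and stayed lower, while the ratio was alike. Amotl2, an angiomotin that restrains YAP, rose from 69.4, 151 and 94.2 to 286, 642 and 486 CPM (log2 change 2.17 ± 0.12, edgeR adjusted p = 2.18e-05). Crim1, a transmembrane binder of BMP, rose from 39.5, 143 and 104 to 87.8, 420 and 246 CPM (log2 change 1.32 ± 0.099, edgeR adjusted p = 8.87e-05). Ccn2, connective tissue growth factor, rose from 9.55, 105 and 53.7 to 113, 290 and 223 CPM (log2 change 2.31 ± 0.35, edgeR adjusted p = 0.00227). Tgfb2 and Ccn2 also belong to the TGF-beta lists, so these counts are not independent.

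Promoters of 2 YAP targets whose changes were described are shown because they hold the core letters that TEAD factors bind. A promoter here is the stretch from 250 bases before to 50 bases after the annotated start in RefSeq (GRCm38.p6); the 250 bases before the start are printed 5′ to 3′ in the sense of the gene, with matches in capitals. The letters GGAATG, searched on both strands, occurred in 8 of 15 list members with a promoter entry (53.3%) against 16.6% of 27025 genes. Ccn1 lies on the - strand (chr3:145649986-145650235) and Amotl2 on the + strand (chr9:102717554-102717803).
Ccn1: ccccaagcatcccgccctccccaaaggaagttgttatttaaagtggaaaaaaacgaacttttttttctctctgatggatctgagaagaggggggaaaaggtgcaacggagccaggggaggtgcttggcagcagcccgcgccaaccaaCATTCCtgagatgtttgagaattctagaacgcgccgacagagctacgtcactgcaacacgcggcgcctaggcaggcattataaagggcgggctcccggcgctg
Amotl2: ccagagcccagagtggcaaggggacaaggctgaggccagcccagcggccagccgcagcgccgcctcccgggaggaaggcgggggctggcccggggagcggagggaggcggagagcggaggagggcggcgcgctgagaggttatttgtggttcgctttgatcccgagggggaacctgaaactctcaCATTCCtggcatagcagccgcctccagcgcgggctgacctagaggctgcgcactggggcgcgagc
In both the match reads CATTCC, the letters of the opposite strand, and it describes the sequence without showing binding.

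Contractile genes of smooth muscle and of activated fibroblasts rose almost as a block. Of 24 tested 22 rose and none fell, with a median log2 change of 1.29 against 0.46 in the primary lines. Acta2, smooth muscle actin and the usual marker of myofibroblasts, measured 156, 697 and 67.5 CPM with DMSO and 1940, 3390 and 1660 CPM with PLX4720, 11.4-fold higher (log2 change 3.51 ± 0.49, edgeR adjusted p = 0.00152; log2 change 4.11 without M2). The lowest PLX4720 library lay above the highest DMSO library although M2 began far above M1 and M3. Myl9, the regulatory light chain of smooth muscle myosin, rose from 2.63, 33.9 and 0.929 to 93.5, 289 and 40.6 CPM (log2 change 4.36 ± 0.43, edgeR adjusted p = 0.000291; 5.25 without M2). Cnn1, which encodes calponin, rose from 0.716, 4.14 and 0.348 to 10.1, 35.8 and 8.75 CPM (log2 change 3.69 ± 0.29, edgeR adjusted p = 0.000114). Tagln, the actin binding protein transgelin, rose from 3.79, 81.1 and 9.03 to 51.5, 287 and 77.8 CPM (log2 change 2.84 ± 0.33, edgeR adjusted p = 0.000658). M2 held the highest level of Myl9, Cnn1 and Tagln in both treatments.

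At lower levels, Lmod1, which nucleates actin filaments in smooth muscle, was almost absent with DMSO, at 0.179, 0.179 and 0.029 CPM, and stood at 7.89, 14.7 and 6.37 CPM with PLX4720 (log2 change 6.20 ± 0.32, edgeR adjusted p = 1.84e-05). Acta1, the actin of skeletal muscle, went from 0.119, 0.149 and 0.203 to 4.98, 1.85 and 3.4 CPM (log2 change 4.36 ± 0.34, edgeR adjusted p = 1e-04). Vcl, vinculin of focal adhesions, was well expressed throughout and rose from 102, 131 and 179 to 246, 333 and 478 CPM, 2.54-fold (log2 change 1.35 ± 0.11, edgeR adjusted p = 0.000122). The site differences of Lmod1 and Vcl passed (site difference 5.13 ± 0.79, edgeR adjusted p = 0.0154; site difference 0.95 ± 0.15, edgeR adjusted p = 0.0162), whereas those of Acta2, Myl9 and Cnn1 did not (adjusted p = 0.461, 0.325 and 0.066). Lmod1 had 8 fragments over the 3 primary DMSO libraries and 17 over the 3 primary PLX4720 libraries, so its primary change is poorly measured. In the primary lines Tagln had 84 fragments over 3 DMSO libraries and 229 over 3 PLX4720 libraries, which leaves its site difference imprecise (site difference 1.45 ± 0.59, edgeR adjusted p = 0.293).

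The promoters of Myl9 and Acta1 are shown because each holds a CArG box, the element that SRF binds in actin and myosin genes. It occurred in 9 of 23 contractile genes with a promoter entry (39.1%) against 1.81% of 27025 genes, both strands searched. Myl9 lies on the + strand (chr2:156775214-156775463) and Acta1 on the - strand (chr8:123894776-123895025), and capitals mark the box.
Myl9: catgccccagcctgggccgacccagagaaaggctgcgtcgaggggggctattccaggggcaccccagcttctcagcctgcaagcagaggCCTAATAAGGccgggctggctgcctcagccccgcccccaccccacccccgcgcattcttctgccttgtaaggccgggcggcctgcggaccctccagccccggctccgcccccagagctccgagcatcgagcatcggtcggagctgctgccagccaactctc
Acta1: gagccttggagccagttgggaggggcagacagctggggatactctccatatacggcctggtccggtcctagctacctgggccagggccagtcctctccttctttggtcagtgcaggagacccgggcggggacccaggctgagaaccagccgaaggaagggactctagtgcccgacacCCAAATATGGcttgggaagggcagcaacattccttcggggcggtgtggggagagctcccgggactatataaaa
The other 14 contractile genes with an entry have no such box within this window.

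Matrix genes held many of the largest rises. Of 22 collagen genes 12 rose and 1 fell (median 1.12 against 0.29 in the primary lines), and of 27 matrix glycoproteins and proteoglycans 19 rose and none fell (median 1.11 against 0.51). Col1a1, the main chain of fibrillar collagen, measured 63.9, 32.4 and 4.99 CPM with DMSO and 549, 639 and 179 CPM with PLX4720, 17.6-fold higher (log2 change 4.14 ± 0.34, edgeR adjusted p = 0.000124). M3 was lowest in both treatments, and no PLX4720 library reached down to the DMSO range. Col12a1, a collagen that sits on fibrils, rose from 75.6, 78.9 and 10.3 to 700, 730 and 184 CPM (log2 change 3.50 ± 0.20, edgeR adjusted p = 2.53e-05). Col11a1 rose from 3.16, 26.7 and 7.38 to 89.9, 375 and 86.7 CPM (log2 change 4.02 ± 0.22, edgeR adjusted p = 2.18e-05). Col5a1, which sets fibril diameter, rose from 362, 294 and 278 to 836, 834 and 882 CPM (log2 change 1.46 ± 0.12, edgeR adjusted p = 0.000114). The basement membrane chain Col4a5 rose from 34, 50.6 and 51.5 to 96.8, 132 and 192 CPM (log2 change 1.60 ± 0.13, edgeR adjusted p = 0.000114). Of the 22 collagen genes 7 had a site difference past the threshold, against 2.94% of all genes. All 7, these 5 among them, were more positive in the metastasis lines.

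Periostin (Postn), a matricellular protein of activated fibroblasts, measured 1.52, 26 and 17 CPM with DMSO and 87.9, 337 and 395 CPM with PLX4720, 23.3-fold higher (log2 change 4.54 ± 0.33, edgeR adjusted p = 7.86e-05). Ccn5, a further CCN family member, went from 1.22, 0.744 and 0.348 to 30.8, 42.8 and 106 CPM (log2 change 6.08 ± 0.52, edgeR adjusted p = 0.000152; 6.97 without M1 and 5.18 without M3). Fbln5, an organiser of elastic fibres, rose from 31.3, 35.2 and 14.5 to 129, 174 and 75.4 CPM (log2 change 2.24 ± 0.14, edgeR adjusted p = 4.35e-05). The 3 genes differ in how evenly the lines moved: Fbln5 rose alike in each, and Ccn5 rose most in M3. Thbs2, thrombospondin 2, showed the widest spread between lines relative to its mean change among genes past the threshold with a mean log2 CPM of at least 3, with 755, 527 and 274 CPM and 2230, 784 and 303 CPM, so that M1 rose by 1.56 on the log2 scale and M3 by 0.14 (log2 change 0.76 ± 0.23, edgeR adjusted p = 0.0484; 0.119 without M1 and 0.111 without M2). For Postn the primary lines had 10 and 7 fragments in all, and its site difference did not pass (site difference 4.98 ± 1.64, edgeR adjusted p = 0.179).

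A run of 4 neighbouring genes rose together. Aspn and Ogn, which encode the small leucine-rich proteoglycans asporin and osteoglycin, lie next to Omd and Ecm2 on chromosome 13 (GRCm38, all on the + strand): Ecm2 at 49504810 to 49532789, Aspn at 49544443 to 49567557, Omd at 49582766 to 49592609 and Ogn at 49608071 to 49624500. Aspn measured 4.6, 4.14 and 8.25 CPM with DMSO and 240, 199 and 324 CPM with PLX4720, 46-fold higher (log2 change 5.52 ± 0.12, edgeR adjusted p = 2.04e-07). Ogn measured 11, 14 and 8.91 and 343, 799 and 444 CPM, 44.7-fold higher (log2 change 5.48 ± 0.23, edgeR adjusted p = 8.95e-06). Omd, osteomodulin, went from 12.6, 4.28 and 2.87 to 76.4, 80.6 and 34.1 CPM (log2 change 3.44 ± 0.27, edgeR adjusted p = 0.000114). Ecm2 rose from 0.388, 0.357 and 0.29 to 4.79, 6.13 and 3.11 CPM (log2 change 3.72 ± 0.37, edgeR adjusted p = 0.000323). No PLX4720 library of these 4 genes lay within the range of the DMSO libraries, and 12.2% of all genes tested had ranges apart.

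The genes on either side did not pass. Ippk, upstream of the group, had a log2 change of -0.12 (edgeR adjusted p = 0.568) and Nol8, downstream of it, -0.12 (edgeR adjusted p = 0.408). Cenpp (49464027 to 49652746, - strand), which spans all 4 genes on the opposite strand, had 0.53 (edgeR adjusted p = 0.0992). The counting used no strand option, so fragments from Cenpp and from genes inside it cannot be told apart where their exons overlap. In the primary lines Ecm2, Aspn, Omd and Ogn had 14, 20, 30 and 24 fragments over the 3 DMSO libraries and 13, 18, 79 and 19 over the 3 PLX4720 libraries. Site differences passed for Ogn (site difference 5.80 ± 0.77, edgeR adjusted p = 0.00881), Aspn (site difference 5.66 ± 0.42, edgeR adjusted p = 0.002) and Ecm2 (site difference 3.79 ± 0.81, edgeR adjusted p = 0.0459) but not for Omd (site difference 2.01 ± 0.60, edgeR adjusted p = 0.132).

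Enzymes that process and crosslink collagen rose in part (10 of 18 higher, 2 lower, median 0.63). Lox, lysyl oxidase, which crosslinks collagen and elastin, went from 417, 122 and 17.7 to 1030, 712 and 189 CPM (log2 change 2.40 ± 0.34, edgeR adjusted p = 0.0017). Adamts2, the procollagen N-proteinase, rose from 4.57, 44 and 5.4 to 19.6, 114 and 30.2 CPM (log2 change 1.96 ± 0.23, edgeR adjusted p = 0.000633). The prolyl hydroxylase subunit P4ha3 rose from 6.12, 4.67 and 1.95 to 13, 12.6 and 6.63 CPM (log2 change 1.41 ± 0.18, edgeR adjusted p = 0.0011). The DMSO level of Lox differed widely between lines, and the lowest, M3, rose most. None of the 18 had a site difference past the threshold, which 2.94% of all genes had, so a count of 0 does not set this list apart.

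Among 26 proteases and inhibitors 10 rose and 6 fell; 10 fell without M1 and 3 without M2. Adamts5, an aggrecanase, measured 0.627, 2.74 and 0.436 CPM with DMSO and 34.7, 71.3 and 44.4 CPM with PLX4720 (log2 change 5.52 ± 0.33, edgeR adjusted p = 2.89e-05; 6.18 without M2). Adamts1, which cleaves versican, measured 26.4, 59.4 and 115 CPM with DMSO and 165, 560 and 999 CPM with PLX4720 (log2 change 3.00 ± 0.14, edgeR adjusted p = 1.17e-05). Mmp11, stromelysin 3, rose from 16.1, 15.1 and 4.56 to 34, 29.6 and 10.9 CPM (log2 change 1.09 ± 0.12, edgeR adjusted p = 0.000493). Ctsl, the lysosomal protease cathepsin L, fell from 2190, 1820 and 2870 to 1130, 682 and 1240 CPM (log2 change -1.19 ± 0.12, edgeR adjusted p = 0.000316). Of the integrin chains 4 of 15 rose and 4 fell. Itga11, the alpha chain of a collagen receptor of fibroblasts, went from 0.269, 0.298 and 0.174 to 6.27, 15.1 and 11.8 CPM (log2 change 5.42 ± 0.33, edgeR adjusted p = 3.36e-05). Itga6, the alpha chain of laminin receptors, fell from 260, 197 and 196 to 124, 42.2 and 40.1 CPM (log2 change -1.86 ± 0.21, edgeR adjusted p = 0.000579). Itgb7, a chain best known from lymphocytes, fell from 305, 18.3 and 65.9 to 102, 10.2 and 23.6 CPM (log2 change -1.32 ± 0.17, edgeR adjusted p = 0.000975). Itga2, the alpha chain of another collagen receptor, fell from 2.83, 0.238 and 2.41 to 0.986, 0.182 and 0.843 CPM (log2 change -1.41 ± 0.18, edgeR adjusted p = 0.0011), so that the chains of collagen receptors did not share 1 direction.

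Interferon-stimulated genes rose in all 3 lines: 36 of 40 rose, none fell, and the line medians were 1.74 in M1, 1.86 in M2 and 1.76 in M3. The primary lines had a median of 0.41 for the same 40 genes. Of these genes 18 had a site difference past the threshold, against 2.94% of all genes, all more positive in the metastasis lines. Parp14, an ADP-ribosyltransferase induced by interferon, measured 12.9, 7.74 and 61.6 CPM with DMSO and 55, 36.8 and 274 CPM with PLX4720, 4.49-fold higher (log2 change 2.17 ± 0.09, edgeR adjusted p = 8.95e-06). Gbp7, a guanylate-binding protein, rose from 11.9, 5.95 and 40.4 to 66.2, 32.2 and 192 CPM (log2 change 2.38 ± 0.10, edgeR adjusted p = 8.95e-06). Igtp, an immunity-related GTPase, rose from 7.01, 1.28 and 19.9 to 42, 5.52 and 114 CPM (log2 change 2.44 ± 0.14, edgeR adjusted p = 2.18e-05). Gbp3 rose from 18.2, 4.91 and 89.9 to 89.4, 31.1 and 328 CPM (log2 change 2.25 ± 0.14, edgeR adjusted p = 4.35e-05). M3 had the highest and M2 the lowest level of each of these 4 genes under both treatments, and each line rose by a like factor. Guanylate-binding proteins are a family of near-identical copies, so their separate counts are uncertain. In the primary lines Gbp7 had 32 fragments over the 3 DMSO libraries and 42 over the 3 PLX4720 libraries, and Gbp3 28 and 23.

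Sensors, receptors and factors of the interferon pathway rose too, in 13 of 21 cases, and 2 fell (median 0.60); none of the 21 fell without M2, without M3, with M2 and M3 summed or with the metastasis libraries alone. Stat2, the interferon-specific STAT, measured 11.3, 5.27 and 23 CPM with DMSO and 45.5, 14.9 and 90.2 CPM with PLX4720 (log2 change 1.84 ± 0.15, edgeR adjusted p = 0.000124). Irf7, the factor that amplifies type I interferon, measured 13, 3.81 and 135 CPM with DMSO and 47.6, 9.43 and 273 CPM with PLX4720 (log2 change 1.40 ± 0.16, edgeR adjusted p = 0.000573). The RNA sensors Ifih1 and Ddx58 rose from 16.9, 8 and 27.1 to 45.5, 20.2 and 59.1 CPM (log2 change 1.29 ± 0.11, edgeR adjusted p = 0.000169) and from 54.6, 37.3 and 173 to 151, 106 and 360 CPM (log2 change 1.34 ± 0.12, edgeR adjusted p = 0.000202). Irf5 rose from 3.64, 6.75 and 2.35 to 15.1, 22.2 and 13.6 CPM (log2 change 2.08 ± 0.19, edgeR adjusted p = 0.000222). Except for Irf5, the DMSO and PLX4720 ranges of these genes overlapped, with M3 highest throughout, while within each line the PLX4720 library was higher. Ifnb1, interferon beta, had 2 fragments over the 3 DMSO libraries and 15 over the 3 PLX4720 libraries and was too low to be tested.

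Antigen presentation genes followed, with 16 of 18 higher and none lower (median 0.96 against 0.35 in the primary lines). Psmb8, a subunit of the immunoproteasome, rose from 3.16, 2.8 and 4.88 to 11, 9.34 and 18.4 CPM (log2 change 1.82 ± 0.20, edgeR adjusted p = 0.000484). Psme2, a proteasome activator subunit, rose from 50.4, 62.1 and 65 to 89, 110 and 139 CPM (log2 change 0.92 ± 0.089, edgeR adjusted p = 0.00028). Tapbp, which loads peptides on class I molecules, rose from 103, 116 and 152 to 293, 210 and 326 CPM (log2 change 1.15 ± 0.13, edgeR adjusted p = 0.000479). H2-K1, a class I heavy chain, went from 34.1, 55.6 and 645 to 61, 72.7 and 994 CPM (log2 change 0.62 ± 0.10, edgeR adjusted p = 0.00344), with M3 far above M1 and M2 in both treatments. Class I genes share long stretches of sequence, which makes their separate counts uncertain. Without Cd53, the leukocyte markers summed to 3.14, 3.12 and 3.13 CPM with DMSO and 3.25, 3.69 and 2.76 CPM with PLX4720, and their part in these rises was not tested.

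Promoters of Gbp7, Gbp3 and Igtp are shown because they hold the core of the interferon-stimulated response element, GAAANNGAAA. Searched on both strands in the window defined above, the letters occurred in 15 of 30 effectors with an entry, in 4 of 14 antigen presentation genes (28.6%), in 3 of 19 sensors and factors (15.8%) and in 3.99% of 27025 genes. All 3 genes lie on the + strand, at chr3:142530086-142530335 for Gbp7, chr3:142559794-142560043 for Gbp3 and chr11:58199306-58199555 for Igtp.
Gbp7: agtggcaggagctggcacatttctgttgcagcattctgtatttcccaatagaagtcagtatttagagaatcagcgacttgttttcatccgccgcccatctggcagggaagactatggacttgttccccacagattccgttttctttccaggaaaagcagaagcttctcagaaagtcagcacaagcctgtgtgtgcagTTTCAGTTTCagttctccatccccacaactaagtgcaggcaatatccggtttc
Gbp3: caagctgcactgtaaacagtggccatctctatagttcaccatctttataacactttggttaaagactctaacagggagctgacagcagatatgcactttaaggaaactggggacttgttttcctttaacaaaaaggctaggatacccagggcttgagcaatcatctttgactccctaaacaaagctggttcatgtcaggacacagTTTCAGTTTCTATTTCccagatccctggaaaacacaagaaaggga
Igtp: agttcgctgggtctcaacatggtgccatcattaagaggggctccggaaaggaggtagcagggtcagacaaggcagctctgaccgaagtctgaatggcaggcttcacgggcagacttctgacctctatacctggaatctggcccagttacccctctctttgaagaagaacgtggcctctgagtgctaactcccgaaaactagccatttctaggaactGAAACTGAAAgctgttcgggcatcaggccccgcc
The capitals mark the matches, which in Gbp7 and Gbp3 read on the opposite strand; Gbp3 has 2 that overlap.

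Secreted immune factors moved in both directions. Of 16 chemokines 8 rose and none fell (median 1.49). Cxcl12, which draws cells bearing CXCR4, measured 11.3, 41.8 and 2.76 CPM with DMSO and 140, 227 and 19.3 CPM with PLX4720, 7.77-fold higher (log2 change 2.96 ± 0.22, edgeR adjusted p = 9.48e-05). The neutrophil chemokine Cxcl1 rose from 3.55, 4.17 and 5.23 to 20, 20.9 and 37.1 CPM (log2 change 2.55 ± 0.16, edgeR adjusted p = 4.35e-05). Its relative Cxcl5 rose from 3.4, 0.0893 and 0.348 to 29.7, 3.31 and 3.4 CPM (log2 change 3.41 ± 0.27, edgeR adjusted p = 0.000115). Ccl9 rose from 37.5, 9.64 and 4.38 to 86.6, 37.8 and 41.2 CPM (log2 change 2.09 ± 0.31, edgeR adjusted p = 0.00217). Ccl2, the monocyte chemokine, passed only narrowly, at 103, 105 and 49.3 and 253, 115 and 284 CPM, with hardly any change in M2 (log2 change 1.31 ± 0.36, edgeR adjusted p = 0.033; 0.0785 without M1, and 0.0846 with a log2 change of 0.69 without M3).

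Cytokines were split, with 6 of 17 higher and 4 lower. Il33, an alarmin of the interleukin 1 family, fell from 224, 89.5 and 38.7 to 29.5, 13.5 and 2.91 CPM, 8.45-fold (log2 change -3.08 ± 0.20, edgeR adjusted p = 4.61e-05). The primary lines gave -0.29, and the sites differed (site difference -2.79 ± 0.27, edgeR adjusted p = 0.00299). Spp1, which encodes osteopontin, fell from 4530, 9080 and 4940 to 2490, 1790 and 1190 CPM (log2 change -1.76 ± 0.26, edgeR adjusted p = 0.00207). Lgals9, the lectin galectin 9, rose from 1.28, 1.22 and 9.99 to 14.6, 7.31 and 40.7 CPM (log2 change 2.60 ± 0.27, edgeR adjusted p = 0.000345). Among 20 NF-kB factors and targets 7 rose and 1 fell, but 4 rose without M1 or without M3. Tnfaip3, the feedback inhibitor A20, rose from 3.91, 2.44 and 2.35 to 13.3, 8.19 and 22.1 CPM (log2 change 2.24 ± 0.28, edgeR adjusted p = 0.000821). Nfkbiz rose from 21.8, 13.5 and 22.9 to 41.6, 19.1 and 31.2 CPM (log2 change 0.63 ± 0.11, edgeR adjusted p = 0.00508). Tnfaip2 fell from 302, 311 and 332 to 226, 133 and 190 CPM (log2 change -0.82 ± 0.15, edgeR adjusted p = 0.00527). The adhesion molecule Icam1 had 8 fragments over the DMSO libraries and 189 over the PLX4720 libraries, nearly all of them in M3 (log2 change 4.47 ± 0.52, edgeR adjusted p = 0.000626).

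Of 30 Wnt pathway genes 9 rose and 2 fell. Wnt7b, a ligand of canonical signalling, had the largest fall among the genes named, at 133, 1.34 and 24 CPM with DMSO and 6.54, 0.0606 and 0.349 CPM with PLX4720, 27.8-fold (log2 change -4.80 ± 0.28, edgeR adjusted p = 2.89e-05; -5.89 without M1). Its DMSO level differed widely between lines, and it was lower with PLX4720 in each. In the primary lines the change was 0.21 (site difference -5.00 ± 0.34, edgeR adjusted p = 0.00134). Of the Frizzled receptors Fzd1 rose from 52.4, 11.2 and 4.24 to 216, 40.2 and 12.7 CPM (log2 change 1.84 ± 0.14, edgeR adjusted p = 8.77e-05). Fzd2 rose from 29, 35.9 and 31.6 to 65.4, 79.2 and 101 CPM (log2 change 1.33 ± 0.15, edgeR adjusted p = 0.000626). Fzd8 rose from 15, 17.3 and 12.3 to 31.4, 44.6 and 30.6 CPM (log2 change 1.25 ± 0.13, edgeR adjusted p = 0.000363). In the Notch list 5 of 13 rose and 1 fell, and 3 rose without M2. Dtx4, a Notch-linked ubiquitin ligase, rose from 7.49, 2.26 and 7.49 to 26.1, 7.4 and 25.2 CPM (log2 change 1.76 ± 0.12, edgeR adjusted p = 6.49e-05). The target Hes1 rose from 15.1, 8.84 and 14.9 to 43.4, 12.6 and 24.7 CPM (log2 change 0.94 ± 0.17, edgeR adjusted p = 0.00555).

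A minority of proliferation genes fell. Of 28 S phase and replication genes 11 fell and none rose, with a median of -0.33; 6 fell without M1, 2 without M2 and 17 without M3. E2f2, a driver of replication genes, went from 5.64, 11.2 and 10 to 2.44, 5.58 and 4.59 CPM (log2 change -1.11 ± 0.17, edgeR adjusted p = 0.00259). Cdc45, part of the replicative helicase, fell from 118, 109 and 111 to 72.3, 79.1 and 86.7 CPM (log2 change -0.51 ± 0.091, edgeR adjusted p = 0.00508). The clamp Pcna fell from 367, 401 and 300 to 240, 275 and 254 CPM (log2 change -0.47 ± 0.095, edgeR adjusted p = 0.00983; 0.0664 without M2). The falls of Cdc45 and Pcna were 1.42- and 1.38-fold, and that of E2f2 was 2.15-fold.

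In the G2 and mitosis list 3 of 24 fell and none rose, or 12.5% against 20.4% of all genes. These 3 did not pass without M1 or without M2. Cdk1, the mitotic kinase, measured 336, 326 and 331 CPM with DMSO and 241, 253 and 270 CPM with PLX4720 (log2 change -0.38 ± 0.083, edgeR adjusted p = 0.0131; 0.0586 without M1 and 0.058 without M2). Of 18 G1 regulators and kinase inhibitors of the cell cycle 2 rose and 2 fell, or 22.2% against 20.4% of all genes. Those that rose were kinase inhibitors. Cdkn1c went from 1.01, 0.774 and 0.929 to 6.3, 2.18 and 2.3 CPM (log2 change 1.84 ± 0.30, edgeR adjusted p = 0.00338). Cdkn1b rose from 53.1, 65.2 and 52 to 69.1, 107 and 61.8 CPM (log2 change 0.45 ± 0.099, edgeR adjusted p = 0.0135; 0.0904 without M2). Of 15 apoptosis regulators 2 rose and 3 fell. Bmf, a BH3-only protein held at the cytoskeleton, rose from 1.25, 1.79 and 0.639 to 27.7, 12.9 and 2.7 CPM (log2 change 3.29 ± 0.41, edgeR adjusted p = 0.00095; 2.58 without M1). Pmaip1, the BH3-only protein Noxa, fell from 2.06, 2.56 and 1.45 to 1.1, 0.516 and 0.698 CPM (log2 change -1.38 ± 0.25, edgeR adjusted p = 0.00576). The survival factor Mcl1 fell from 196, 466 and 369 to 159, 321 and 280 CPM (log2 change -0.41 ± 0.086, edgeR adjusted p = 0.0107; 0.0613 without M2). Pmaip1 moved the opposite way in the primary lines, at 0.85 (site difference -2.23 ± 0.31, edgeR adjusted p = 0.0103).

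Of 24 cholesterol synthesis genes 15 rose and none fell in the metastasis lines, with a median of 0.51 against -0.06 in the primary lines. Without M3 7 rose. Mvk and Mvd, which act on mevalonate, went from 75.6, 46.3 and 33.9 to 120, 88.7 and 89.1 CPM (log2 change 1.00 ± 0.13, edgeR adjusted p = 0.00105) and from 26.5, 30.9 and 29.2 to 51.8, 42.5 and 57.9 CPM (log2 change 0.81 ± 0.12, edgeR adjusted p = 0.00205). Hmgcs1, which makes HMG-CoA, rose from 254, 332 and 244 to 438, 550 and 613 CPM (log2 change 0.95 ± 0.12, edgeR adjusted p = 0.00109), with the largest rise in M3. Lss, which closes the sterol ring, rose from 155, 96.8 and 93.4 to 229, 136 and 154 CPM (log2 change 0.59 ± 0.098, edgeR adjusted p = 0.00373). The 4 site differences that passed in this list of 24 are those of these 4 genes, against 2.94% of all genes. Hmgcs1 was the only list member of 16 with a promoter entry to hold the sterol regulatory element letters TCACNCCAC (6.25% against 1.44% of 27025 genes, both strands), which is why its promoter (chr13:119690101-119690350, + strand) is shown.
Hmgcs1: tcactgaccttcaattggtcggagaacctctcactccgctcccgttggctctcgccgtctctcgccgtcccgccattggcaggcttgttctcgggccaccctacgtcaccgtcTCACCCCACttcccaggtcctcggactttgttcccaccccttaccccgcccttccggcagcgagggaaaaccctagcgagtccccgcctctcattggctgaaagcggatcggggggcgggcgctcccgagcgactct
The other 15 with an entry are without these exact letters in this window, and members without an entry were not searched.

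Fatty acid oxidation genes rose in 5 of 17 cases, and in 1 to 3 when a line was left out or the metastasis libraries were fitted alone. Pdk4, a kinase that holds back pyruvate oxidation, led them, from 2.57, 0.863 and 0.174 to 12.7, 4.55 and 0.872 CPM (log2 change 2.34 ± 0.19, edgeR adjusted p = 0.000115). Of 21 glycolysis genes 1 rose and 1 fell, or 9.52% against 20.4% of all genes, and 6 fell without M3. Pfkfb3, which makes an activator of glycolysis, rose from 2.33, 3.96 and 7.84 to 5.37, 6.46 and 11.3 CPM (log2 change 0.79 ± 0.17, edgeR adjusted p = 0.0119). Of 22 ribosome biogenesis genes 7 fell and none rose; at most 1 passed without M1 or without M2, and 12 without M3. Npm1, nucleophosmin, went from 1780, 2260 and 2760 to 1240, 1530 and 2330 CPM (log2 change -0.45 ± 0.11, edgeR adjusted p = 0.021; 0.0789 without M1 and 0.122 without M2). Nop2 fell from 190, 192 and 266 to 133, 119 and 223 CPM (log2 change -0.48 ± 0.11, edgeR adjusted p = 0.0142; 0.0929 without M2). Of 24 lysosome genes 4 rose and 2 fell, or 25% against 20.4% of all genes. Grn, progranulin, rose from 144, 125 and 253 to 296, 210 and 342 CPM (log2 change 0.74 ± 0.12, edgeR adjusted p = 0.003). Lamp2, a membrane protein, rose from 284, 214 and 307 to 445, 300 and 402 CPM (log2 change 0.51 ± 0.097, edgeR adjusted p = 0.00716).

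The chromatin proteins Hmga1 and Hmga2, high in embryonic and many transformed cells, fell from 443, 598 and 321 to 164, 97.6 and 109 CPM (log2 change -1.86 ± 0.22, edgeR adjusted p = 0.000662) and from 352, 215 and 343 to 125, 56.6 and 86 CPM (log2 change -1.81 ± 0.15, edgeR adjusted p = 0.000141). Igf2bp1, an oncofetal RNA-binding protein, rose instead, from 0.209, 0.446 and 0.929 to 0.876, 4.49 and 9.63 CPM (log2 change 3.15 ± 0.24, edgeR adjusted p = 9.48e-05), and the primary lines gave 0.04 (site difference 3.11 ± 0.29, edgeR adjusted p = 0.00298). Of 15 prostaglandin and aryl hydrocarbon genes 2 rose and 4 fell. Cyp1b1, a cytochrome P450 of the aryl hydrocarbon response, rose from 0.806, 3.33 and 0.697 to 11.6, 63.6 and 26.9 CPM, 21.6-fold (log2 change 4.43 ± 0.23, edgeR adjusted p = 1.84e-05). The prostaglandin enzymes Ptgs1 and Ptges fell from 313, 101 and 121 to 200, 41.7 and 27.5 CPM (log2 change -1.34 ± 0.25, edgeR adjusted p = 0.00636) and from 214, 114 and 123 to 149, 73.8 and 56.7 CPM (log2 change -0.76 ± 0.16, edgeR adjusted p = 0.0103).

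Several of the largest rises lay outside the themes above. Ptx3, a secreted pentraxin of innate immunity, went from 0.985, 32.8 and 1.28 to 32.8, 410 and 61.7 CPM (log2 change 4.56 ± 0.36, edgeR adjusted p = 0.000389; 5.32 without M2), and was listed at 0 fragments in the 6 primary libraries. Edn1, the vasoconstrictor endothelin 1, rose from 0.358, 1.13 and 0.494 to 4.98, 14 and 24.9 CPM (log2 change 4.36 ± 0.42, edgeR adjusted p = 0.000276; 3.67 without M3). Fat4, a giant cadherin of the Hippo and planar polarity systems, rose from 1.91, 10.8 and 1.36 to 26.2, 228 and 33.6 CPM (log2 change 4.27 ± 0.22, edgeR adjusted p = 1.59e-05). The serine protease Prss23 rose from 11.8, 12.2 and 2.21 to 97.2, 187 and 101 CPM (log2 change 4.06 ± 0.39, edgeR adjusted p = 0.000259; 3.46 without M3). The complement protease C1s1 rose from 2.78, 2.02 and 1.57 to 44.4, 38.9 and 17 CPM (log2 change 3.92 ± 0.36, edgeR adjusted p = 0.000222). Mme, the peptidase neprilysin, rose from 2.48, 3.12 and 0.871 to 35.3, 41 and 11.8 CPM (log2 change 3.77 ± 0.16, edgeR adjusted p = 8.95e-06). Mme stands out for evenness, with changes of 3.83, 3.71 and 3.74 in log2 CPM.

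The largest falls included genes known from neurons, lymphocytes and liver. Sh2d5, an adaptor protein of the brain, went from 55.7, 40 and 69.9 to 3.15, 1.46 and 2.94 CPM, 22.3-fold lower (log2 change -4.48 ± 0.17, edgeR adjusted p = 8.95e-06). Nptx1, a neuronal pentraxin, fell from 69.6, 3.57 and 10.8 to 4.05, 0.091 and 0.407 CPM (log2 change -4.42 ± 0.28, edgeR adjusted p = 4.04e-05). Adcy8, an adenylyl cyclase, fell from 28.6, 57 and 50.9 to 2, 3.24 and 2.68 CPM (log2 change -4.08 ± 0.27, edgeR adjusted p = 4.61e-05). Upp1, uridine phosphorylase, fell from 29.4, 41.2 and 79.3 to 3.42, 2.21 and 3.61 CPM (log2 change -3.92 ± 0.25, edgeR adjusted p = 4.35e-05). Hao1, the liver enzyme glycolate oxidase, fell from 12.4, 22 and 20.4 to 0.52, 1.85 and 1.57 CPM (log2 change -3.88 ± 0.23, edgeR adjusted p = 3.05e-05). The urea transporter Slc14a1 fell from 121, 195 and 153 to 17, 17.9 and 7.88 CPM (log2 change -3.50 ± 0.26, edgeR adjusted p = 8.77e-05). Sema7a, a membrane-anchored semaphorin, fell from 159, 259 and 115 to 26.8, 19.1 and 6.17 CPM (log2 change -3.50 ± 0.28, edgeR adjusted p = 0.000124). Apart from Nptx1, whose ranges overlapped, no PLX4720 library of these genes reached the lowest DMSO library. They were picked as the largest falls, and 12.2% of all genes tested had ranges apart.

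Cytip, a regulator of integrin adhesion in leukocytes, fell from 97.1, 41.6 and 52.1 to 12, 2.97 and 4.68 CPM (log2 change -3.41 ± 0.22, edgeR adjusted p = 4.35e-05). Prkcb, a protein kinase C, fell from 5.34, 7.97 and 83 to 1.31, 0.758 and 6.98 CPM (log2 change -3.05 ± 0.32, edgeR adjusted p = 0.00109). Cd53, a tetraspanin of leukocytes, fell from 31.4, 6.25 and 13 to 7.91, 0.0303 and 0.611 CPM (log2 change -3.50 ± 0.59, edgeR adjusted p = 0.00402; -5.02 without M1). Cd53 supplied most of the summed leukocyte level given above in the DMSO libraries and in M1 with PLX4720, but not in M2 and M3 with PLX4720, where it measured 0.0303 and 0.611 CPM. Meanwhile 13 of the 16 leukocyte markers were under 1 CPM in all 6 libraries. Whether a few leukocytes or the tumour cells carried Cd53 was not tested.

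The response differed from that of the primary lines at 487 of 16555 genes (2.94%), 306 with a more positive change in the metastasis lines (1.85%) and 181 with a more negative one (1.09%). Of the 3378 genes that passed in the metastasis lines 437 also had such a difference, and 281 of these had risen and were more positive while 151 had fallen and were more negative; 194 of the 437 had fitted changes of opposite sign at the 2 sites. Another view is overlap: 660 genes passed at both sites with 1 direction. The count of site differences rests on single lines, being 122 without T2, 160 without T1, 243 without T3, 257 without M2, 295 without M3 and 798 without M1.

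S1pr1, a receptor for sphingosine 1-phosphate that guides cells out of lymph nodes, rose in the metastasis lines from 7.34, 15.2 and 6.74 to 55.3, 81.4 and 31.5 CPM (log2 change 2.52 ± 0.21, edgeR adjusted p = 0.000141) and fell in the primary lines (log2 change -2.02, edgeR adjusted p = 0.0135; site difference 4.54 ± 0.39, edgeR adjusted p = 0.00248). Cytip did the reverse, rising by 2.08 in the primary lines (edgeR adjusted p = 0.0212; site difference -5.49 ± 0.45, edgeR adjusted p = 0.00248). Its primary level was low, with 33 fragments over the 3 DMSO libraries and 158 over the 3 PLX4720 libraries. In all 29 genes passed at both sites with opposite directions, 20 of them lower and 9 higher in the metastasis lines. Pls1, an actin bundler of epithelial brush borders, fell from 12.7, 1.19 and 17.5 to 1.83, 0.182 and 2.24 CPM (log2 change -2.86 ± 0.13, edgeR adjusted p = 1.17e-05) with 0.23 in the primary lines (site difference -3.10 ± 0.16, edgeR adjusted p = 0.000313). The peptide hormone Adm, adrenomedullin, rose from 3.43, 5.74 and 5.78 to 18.3, 42.2 and 25 CPM (log2 change 2.47 ± 0.32, edgeR adjusted p = 0.001; site difference 3.23 ± 0.69, edgeR adjusted p = 0.0443). The adrenergic receptor Adra1d rose from 3.43, 3.27 and 1.28 to 26.8, 21.7 and 21.3 CPM (log2 change 3.20 ± 0.37, edgeR adjusted p = 0.00059; site difference 3.12 ± 0.56, edgeR adjusted p = 0.0236). Junos, an RNA antisense to Jun, fell from 13.4, 6.58 and 8.77 to 3.78, 2.24 and 1.8 CPM (log2 change -1.88 ± 0.26, edgeR adjusted p = 0.0016; site difference -3.10 ± 0.50, edgeR adjusted p = 0.0176), and without strand in the counting its fragments cannot be told apart from those of Jun.

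**Figure D5:**
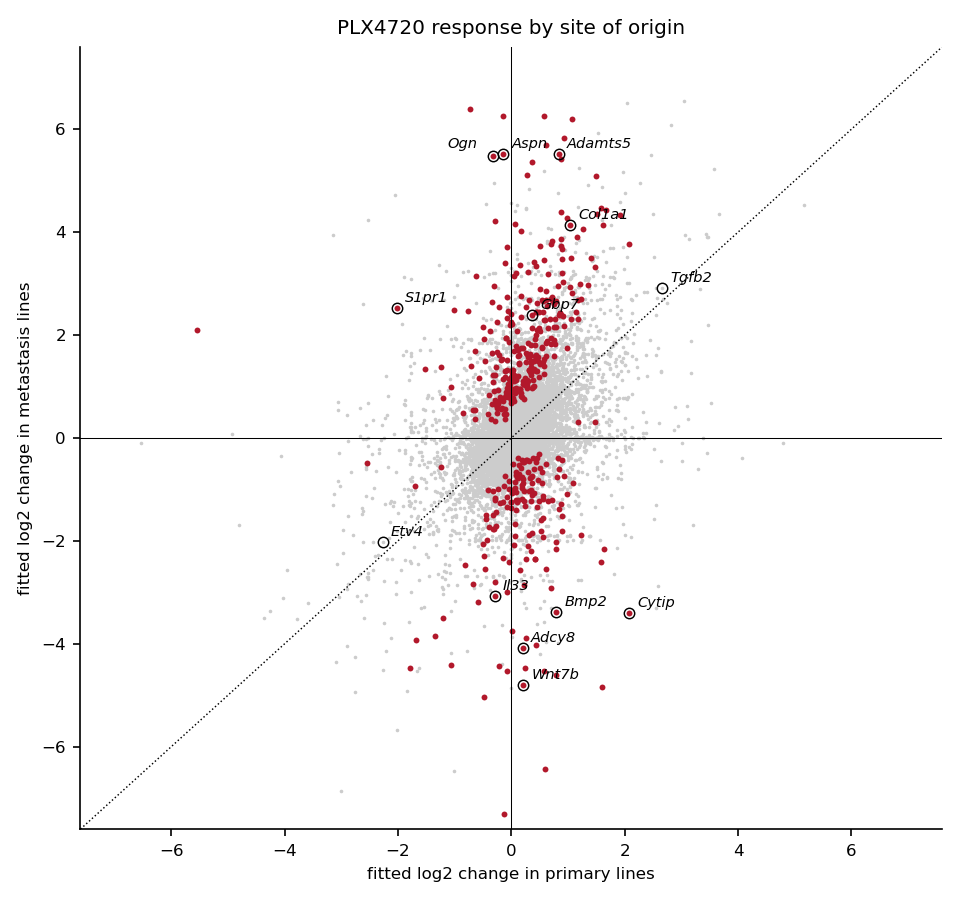
Fitted log2 change in the metastasis lines (vertical) against that in the primary lines (horizontal) for 16555 genes, in red where the gene passed in the metastasis lines and the difference between sites passed (437 genes); the dotted line marks equal change. Aspn, Ogn, Adamts5 and Col1a1 lie high above the dotted line, Wnt7b, Adcy8, Bmp2 and Cytip far below it, and Tgfb2 and Etv4 near it.

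The 3 lines also differed in baseline, while their changes were correlated. Pearson correlations of the change in log2 CPM over 10966 genes were 0.72 between M1 and M2, 0.66 between M1 and M3 and 0.80 between M2 and M3. Spearman rank correlations were lower, at 0.65, 0.51 and 0.65 in the same order. Both are across genes, which are not independent replicates, and each pair shares its medium, dose and time but no library. The 5 genes past the threshold with the most even change relative to its mean, at a mean log2 CPM of at least 3, were Map4, Pter, Thra, Ulk2 and Irs2, in that order. Map4, a microtubule-associated protein, rose from 125, 83 and 85.3 to 188, 125 and 129 CPM (log2 change 0.59 ± 0.092, edgeR adjusted p = 0.00262). Pter fell from 75.9, 42.5 and 120 to 36.4, 20.4 and 58.1 CPM (log2 change -1.05 ± 0.11, edgeR adjusted p = 0.00032). Thra, the thyroid hormone receptor, rose from 17.2, 27.3 and 12.4 to 38, 59.6 and 27.2 CPM (log2 change 1.14 ± 0.094, edgeR adjusted p = 0.000128). Ulk2, a kinase of the autophagy machinery, rose from 54.5, 38.7 and 29.3 to 74.8, 53.2 and 40.4 CPM (log2 change 0.46 ± 0.095, edgeR adjusted p = 0.0105; 0.0607 without M2). Irs2, an adaptor of the insulin receptor, rose from 13.8, 19.2 and 14.9 to 25.2, 35.4 and 27.5 CPM (log2 change 0.88 ± 0.089, edgeR adjusted p = 0.000343). For Map4 the changes in log2 CPM were 0.594, 0.586 and 0.595, so the lines moved almost equally.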

How the data were processed

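RNA was extracted from 12 cultures (6 lines, each with DMSO or 2 µM PLX4720 for 48 hours) and made into stranded, ribosomal RNA-depleted libraries, per the labels' protocols. The authors deposited raw counts of fragments per gene, made with featureCounts 1.5.2 over exons of the Ensembl 84 annotation (GRCm38) with both mates required and no strand option, per the file headers, from alignments by a tool not given in the sources used here. Reads that map to near-identical genes and overlapping genes on opposite strands can therefore share counts.

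Counted fragments ranged from 31992512 to 39288748 per library. Of 47729 genes listed, 47224 matched a symbol and 16555 passed edgeR's filterByExpr over the 4 groups. With R 4.3.3 and edgeR 4.0.16, all 12 libraries were fitted in 1 quasi-likelihood model with TMM scaling, the line as a block and a PLX4720 term for each site, which leaves 4 residual degrees of freedom; p-values were adjusted by Benjamini-Hochberg over all genes tested, with a threshold of 0.05. The site difference is the metastasis term minus the primary term. Changes by line are differences of log2 CPM with a prior count of 0.5. The block rests on the labels, which give both libraries of a line the same cell line, and deviations of same-line libraries from their group means correlated at 0.80, 0.75 and 0.79 in M1, M2 and M3. Libraries of different lines differed far beyond counting noise (chi-square per degree of freedom 133 to 277), so no library was a copy of another. On simulated counts for the metastasis comparison (16555 genes), 81% of genes changed by 1 on the log2 scale and 97% of those changed by 2 were recovered, and 9.64% of the calls were false. That false share is above the 0.05 set by the threshold. The simulation changed 100 well counted genes at each size, against 3378 genes that passed in the data.

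Named genes are Tgfb1, Tgfb2, Tgfb3, Braf, Trp53 and Cdkn2a; the 15 largest changes past the threshold in each direction, in genes with a given name, that had the same direction in every line and reached a mean log2 CPM of 1; up to 4 members with the smallest p of each of 41 gene lists; the 8 largest site differences in each direction; and 6 genes each with the largest and the smallest spread between lines, of which the text gives some. Acta2, Omd, Ecm2, Ccn2, Tagln, Irf7, Icam1, H2-K1, Ier3, Spry4, Jun, Ifngr2 and F2r were named after their values were seen. Some genes the rule names are not reported here. The gene lists and their members were chosen with earlier results of these data known. The share of a list that passed therefore describes it and does not test it. Promoters came from a RefSeq table (GRCm38.p6), searched by exact letters. Alternatives tried were DESeq2 1.42.0, other scaling factors, other low-count filters, no line block, M2 and M3 summed, the metastasis libraries alone, and each line left out.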

Additional observations from a re-analysis of the deposited data

Results flagged for a closer look

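Of the genes named above, 76 had a log2 change that differed between the metastasis and the primary lines. The test was that of the difference (edgeR, adjusted over 16555 genes), and 2.94% of all genes passed it. Genes were named partly for a large site difference, a small p or a large change, so the 76 cannot be set against that share. Each value below is the change in the metastasis lines minus that in the primary lines on the log2 scale. Some of these genes had few fragments in the primary lines, where their change is poorly measured. Over the 3 DMSO and the 3 PLX4720 primary libraries Lmod1 had 8 and 17 fragments and Itga11 23 and 41. Gbp3 had 28 and 23, Gbp7 32 and 42 and Cytip 33 and 158.

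The matrix and its proteases held many of them: the difference was 5.80 for Ogn, 5.66 for Aspn, 4.69 for Adamts5, 4.54 for Itga11, 3.85 for Col11a1, 3.79 for Ecm2, 3.10 for Col1a1, 2.79 for Prss23, 2.10 for Col12a1, 1.79 for Adamts1, 1.32 for Col5a1 and 0.85 for Col4a5. For contractile, YAP and TGF-beta genes it was 5.13 for Lmod1, 0.95 for Vcl, 1.38 for Amotl2, 1.24 for Ccn1, 1.00 for Crim1, 1.70 for Smad6, 1.27 for Thbs1, 0.91 for Pmepa1, 0.82 for Id2, 0.78 for Itgb5 and 0.48 for Smad3.

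For interferon and antigen presentation genes it was 2.51 for Gbp3, 2.02 for Gbp7, 2.00 for Igtp, 1.41 for Parp14, 1.22 for Stat2, 0.85 for Ifih1 and 0.80 for Psme2. For secreted factors, their receptors and adhesion molecules it was 4.91 for Igf1, 4.54 for S1pr1, 3.23 for Adm, 3.12 for Adra1d, 3.01 for Cxcl5, 2.30 for Cxcl1, 2.13 for Cxcl12, 2.84 for Edn1, 2.87 for Icam1, 1.85 for Lgals9, 1.29 for Egfr, 1.13 for Nrg1 and 1.54 for Fzd1. For cholesterol synthesis it was 1.04 for Mvk, 1.00 for Mvd, 0.85 for Lss and 0.82 for Hmgcs1. Other genes that were more positive in the metastasis lines were Krt7 at 4.83, Fat4 at 3.29, Igf2bp1 at 3.11, Cyp1b1 at 2.76, C1s1 at 2.76, Mme at 1.69, Spry1 at 0.79, Dtx4 at 0.78, Thra at 0.75 and F2r at 1.34.

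The change was more negative in the metastasis lines, with a difference of -5.49 for Cytip, -5.00 for Wnt7b, -4.28 for Adcy8, -4.17 for Bmp2, -3.36 for Nptx1, -3.10 for Junos, -3.10 for Pls1, -2.79 for Il33, -2.70 for Sh2d5, -2.29 for Sema7a, -2.24 for Upp1, -2.23 for Pmaip1, -1.79 for Ptgs1, -1.76 for Pdpn, -2.94 for Grhl2, -2.40 for Ocln, -1.14 for Pter, -1.96 for Jun and -1.22 for Ifngr2. Of all these genes S1pr1, Cytip, Pmaip1, Jun, Ifngr2 and F2r passed at both sites with opposite directions.

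Many of these differences rest on single lines: of 76, 23 did not pass without M2, 2 without M1, 24 without M3, 39 without T2, 33 without T1 and 30 without T3, and 15 with M2 and M3 summed as 1 line. The 30 that passed under every alternative that could test them, apart from the fit without the line block, were those of Adamts1, Adamts5, Amotl2, Aspn, Bmp2, Col5a1, Cxcl1, Cxcl5, Cyp1b1, Cytip, F2r, Fzd1, Ifngr2, Igf1, Igf2bp1, Igtp, Il33, Jun, Krt7, Nptx1, Ogn, Parp14, Pls1, Pmaip1, Pter, S1pr1, Sh2d5, Smad6, Upp1 and Wnt7b.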

How the results depend on the processing

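The fit without the line block, which leaves baseline differences between lines in the error, called 15 genes in the metastasis lines and 0 for the site difference (1196 and 279 at an unadjusted p under 0.05). The labels give both libraries of a line the same cell line, so the block is part of the design. With the metastasis libraries alone 2195 genes passed; with one line left out the count ran from 1891 (without M2) to 3090 (without T3), against 3378 with all lines. For the site difference, 487 in the main analysis, DESeq2 gave 898, no low-count filter gave 996, and leaving out a line gave 122 to 798. DESeq2, other scaling factors and other filters gave 3185 to 3636 genes in the metastasis lines, and summing M2 and M3, which share a number in the table names, gave 2565 there and 355 for the site difference. No gene called in the main analysis and in an alternative changed direction. The share of higher among called genes was 59% in the main analysis and 54.7% to 66.3% elsewhere, except 73.3% without the block. Of 161 named genes tested, 158 passed in the metastasis lines; 139 of these passed under every alternative that could test them apart from the fit without the block, which lost 150, and none reversed. All alternatives planned were run.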

Other observations

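Among the 29 genes that passed at both sites with opposite directions, 3 more were looked at after their values were seen. Jun, the AP-1 subunit, measured 245, 241 and 161 CPM with DMSO and 164, 100 and 94.8 CPM with PLX4720 (log2 change -0.87 ± 0.21, edgeR adjusted p = 0.0197; 0.117 without M2), while the mean of the 3 primary lines went from 34.5 to 80.6 CPM. Its antisense RNA Junos, described above, had a log2 change of -1.88 in the metastasis lines and of 1.22 in the primary lines, where it did not pass (edgeR adjusted p = 0.117). Ifngr2, a chain of the interferon gamma receptor, fell from 95.1, 102 and 79.8 to 82.7, 66.2 and 62.9 CPM in the same lines whose interferon-stimulated genes rose (log2 change -0.39 ± 0.10, edgeR adjusted p = 0.0309; 0.16 without M2 and 0.0531 without M3). F2r, the thrombin receptor, rose from 337, 225 and 230 to 463, 340 and 301 CPM (log2 change 0.48 ± 0.098, edgeR adjusted p = 0.00955; 0.0733 without M2) and fell in the primary lines, where the mean went from 381 to 199 CPM.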
